A study of Mus musculus with 12 samples.

Results

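Collagen genes were followed across 10 RNA sequencing libraries labelled 4T1, a line of mouse mammary carcinoma cells of BALB/c origin. Members were the protein-coding genes whose mouse symbol consists of Col, a number, a and a number. They numbered 44 of 30803 genes in the files of the GSH and WT libraries and the same 44 of 17558 genes in those of the Cas9 and Ctrl libraries. They were grouped as 11 fibrillar, 8 basement membrane and 25 other collagens. The 4 groups were GSH, WT, Cas9 and Ctrl, named in the labels by genotype, and the study's design compares GSH with WT, and Cas9 with Ctrl. The labels expand neither GSH nor Ctrl, name no gene targeted with Cas9, and give every sample the same line and the same treatment, culture, in DMEM with serum. Values of 3 GSH, 3 WT and 3 Cas9 libraries and of 1 Ctrl library (Ctrl 3) were used, while Ctrl 1 and Ctrl 2 were not analysed here.

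Collagens are secreted proteins of 3 chains wound into a triple helix. Fibrillar collagens, foremost types I and III, form the tensile fibres of connective tissue and are made mainly by fibroblasts and related mesenchymal cells. Type IV collagens assemble into the network of basement membranes, the sheets under epithelia and around vessels, and epithelial and endothelial cells are among their sources. The other collagens coat or link fibrils, anchor epithelia, form short networks or beaded filaments, or stay in the cell membrane. Before secretion, chains are hydroxylated on proline and lysine, folded with the help of chaperones and carried out of the endoplasmic reticulum in large carriers. In mammary tumours, fibrillar collagen is known as a product chiefly of the stroma.

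Levels were given in the deposited FPKM, which divides a gene's fragments by its length and by the library total, so that genes can be compared per length within a library. The GSH and WT libraries held 18531444 to 30168737 reads, counted back from the smallest steps between FPKM values, and the Cas9 and Ctrl libraries at least 31069429 to 36741699. The files of GSH and WT and those of Cas9 and Ctrl (each joined into a table) were normalised separately and with different gene lengths, so that levels across the tables are given side by side, with no test and no fold. Keratins and other carcinoma markers were present in every library. All 6 such markers stood at 1 FPKM or more in each of the 10 libraries, with summed levels of 1610 to 1670 FPKM in GSH, 1540 to 1620 FPKM in WT, 1560 to 2340 FPKM in Cas9 and 2030 FPKM in Ctrl 3. The Cas9 and Ctrl libraries also held markers of other cell types, which goes against a culture of carcinoma cells alone. Of 8 endothelial markers, all 8 stood at 1 FPKM or more in each Cas9 library and 7 in Ctrl 3, against 0 of 8 in every GSH and WT library. Of 10 fibroblast markers, 8 or 9 did so in the Cas9 libraries and 9 in Ctrl 3, against 2 (Pdgfra and Thy1) in every GSH and WT library. Leukocyte markers, 7 in number, gave 6 at 1 FPKM or more in each Cas9 library and 5 in Ctrl 3. In every GSH and WT library 1 did so, Cd68, at 15.5 to 18.8 FPKM. The leukocyte phosphatase gene Ptprc stood at 15.9 to 21.0 FPKM in Cas9 and 21.1 FPKM in Ctrl 3. In the GSH and WT libraries Ptprc reached at most 0.0407 FPKM. In bulk RNA, fewer cells of a type and less RNA per cell cannot be told apart.

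In the GSH and WT libraries the collagen transcripts were mostly those of basement membranes and of anchoring fibrils. Summed over all 44 members, collagens took 414, 433 and 416 FPKM in GSH 1 to 3 and 434, 453 and 436 FPKM in WT 1 to 3. The 8 basement membrane members took 246 to 249 FPKM of this in GSH and 246 to 257 FPKM in WT, and the groups overlapped. The other collagens took 148 to 149 FPKM in GSH and 168 to 181 FPKM in WT, with no overlap. Of this sum, Col7a1 alone took 88.9 to 92.8 FPKM in GSH and 107 to 118 FPKM in WT. Of the 25 members of this class, 20 had a mean under 1 FPKM over the 6 libraries. Of single tested genes in the whole table, 52.5% did not overlap. The fibrillar members took 19.7, 34.7 and 19.2 FPKM in GSH 1 to 3 and 8.55, 14.6 and 21.8 FPKM in WT 1 to 3. Col4a1, Col7a1, Col4a2, Col18a1, Col8a1 and Col16a1 together made up 88.7 to 91.9% of the summed collagen level in GSH and 91.5 to 94.5% in WT. Of the 44 members, 13 reached the filter for testing, a mean of 1 FPKM or more over the 6 libraries, and 31 lay below it. Those below had means of 0.00153 to 0.746 FPKM, with Col11a2, a chain of the minor fibrillar type XI, as the highest. They included Col2a1 of cartilage, the partner chains Col5a2, Col6a2 and Col6a3, and Col4a3 and Col4a4 of the specialised basement membranes of kidney and lung.

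**Figure D1:**
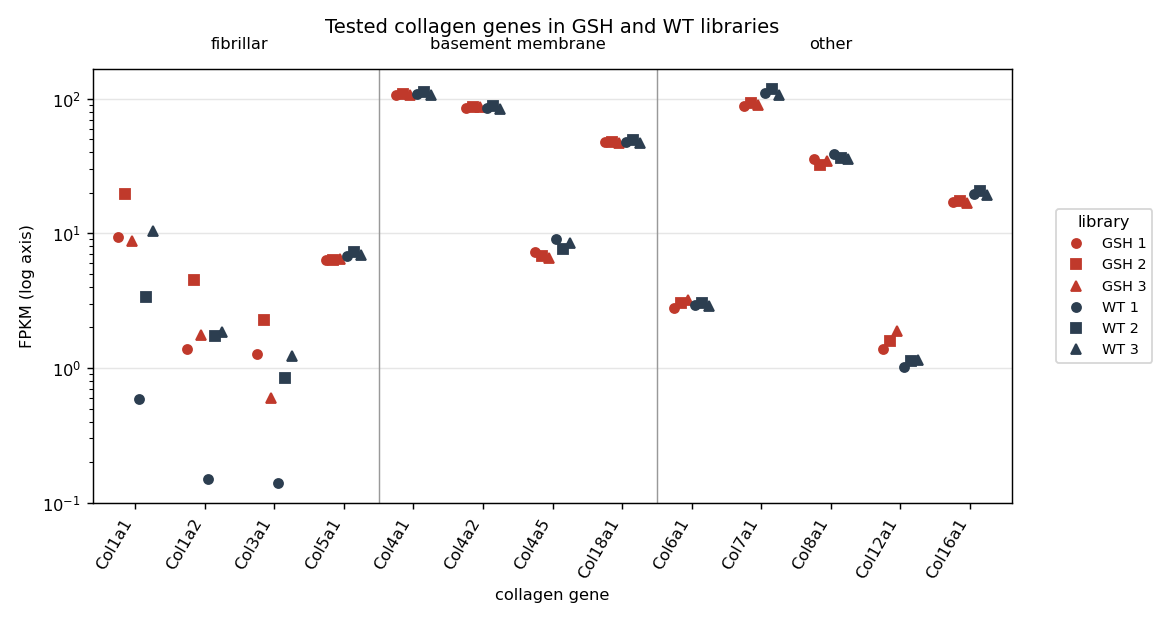
FPKM (log axis) of the 13 tested collagen genes in each of the 3 GSH libraries (red) and 3 WT libraries (dark blue), grouped by class, with the symbol shape giving the replicate. Col4a1, Col4a2 and Col18a1 stay within 1.06-fold over the 6 libraries, whereas Col1a1, Col1a2 and Col3a1 spread 16.5-fold to 33-fold.

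The comparison of GSH with WT asked which transcripts differed between these genotypes. In limma's moderated test of log2(FPKM + 1), adjusted by Benjamini-Hochberg over 12283 genes at 0.05, 4547 genes (37%) passed, 2533 higher (20.6%) and 2014 lower (16.4%) in GSH. Of the 13 tested collagens, 4 passed, so that their share was near that of all genes. Col7a1, Col16a1 and Col4a5 fell and Col12a1 rose. The count was 2 with no filter, without GSH 2 and without GSH 3. The GSH and WT libraries did not overlap for 6 of the 13, against 52.5% of all tested genes. The median log2 change was -0.02 over the 13 collagens and 0.02 over all tested genes. Nothing in the labels says that replicates were cultured separately, and a p-value here reflects only how far these libraries spread, which can be technical. Of all genes that passed, 55.7% were higher in GSH. This share was 49.2% with median-of-ratios scaling and 42.8% after rescaling each library to exclude mitochondrial genes, which took 5.75 to 6.12% of reads in GSH and 8.20 to 8.51% in WT. The sign of each of the 4 collagen calls was the same under both scalings.

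**Figure D2:**
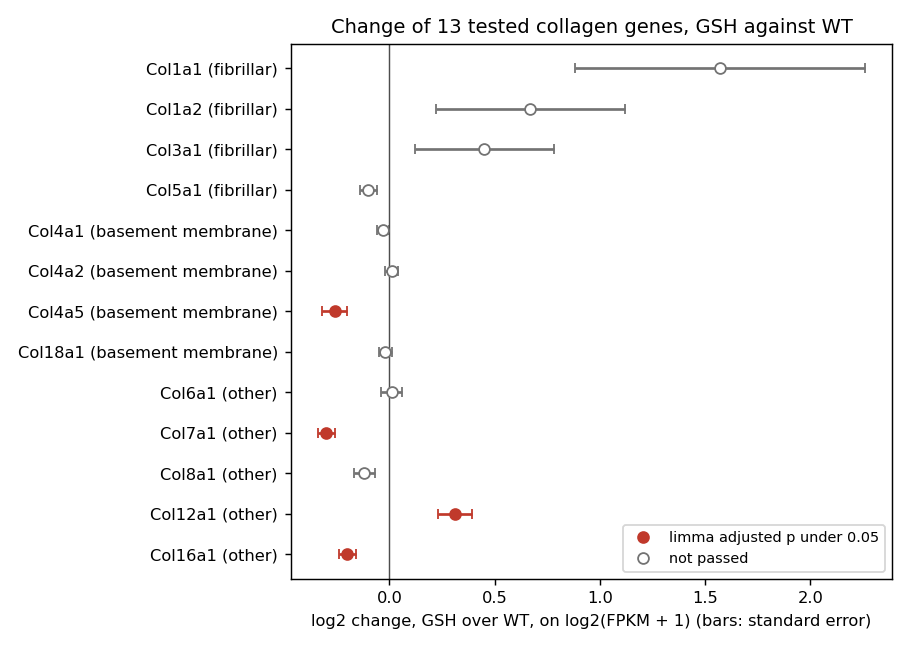
Log2 change of GSH over WT on the log2(FPKM + 1) scale for the 13 tested collagen genes, with bars giving limma's standard error and filled red points an adjusted p under 0.05. Col7a1 (-0.30), Col4a5 (-0.26) and Col16a1 (-0.20) lie below 0 and Col12a1 (0.31) above it, and Col1a1 has the widest bar (SE 0.69).

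Among the basement membrane collagens, the abundant chains hardly differed in level between GSH and WT, and 1 minor chain fell. Col4a1 and Col4a2 encode the alpha1 and alpha2 chains that make up the common type IV network. Col4a1 stood at 106, 108 and 107 FPKM in GSH 1 to 3 and at 109, 112 and 107 FPKM in WT 1 to 3. Col4a2 stood at 85.4, 86.5 and 86.3 FPKM in GSH 1 to 3 and at 84.6, 87.6 and 83.6 FPKM in WT 1 to 3. The groups overlapped for both genes. The log2 changes were -0.03 (SE 0.03) for Col4a1 and 0.01 (SE 0.03) for Col4a2, with limma adjusted p values of 0.497 and 0.714. The genes lie head to head on mouse chromosome 8 and share a promoter region. Their windows of 250 bases before to 50 after the annotated start, from RefSeq on GRCm38.p6, are shown because both transcripts kept to a narrow band in these libraries and stood highest in the same library, Cas9 1, of the other table. Capitals mark, on either strand, the CCAAT box (CCAAT or reversed as ATTGG), the GC box (GGGCGG or reversed as CCGCCC) and the TATA box (TATAAA or reversed as TTTATA), and each sequence runs 5′ to 3′ on its gene's own strand.
Col4a1 chr8:11312777-11313076 (minus strand): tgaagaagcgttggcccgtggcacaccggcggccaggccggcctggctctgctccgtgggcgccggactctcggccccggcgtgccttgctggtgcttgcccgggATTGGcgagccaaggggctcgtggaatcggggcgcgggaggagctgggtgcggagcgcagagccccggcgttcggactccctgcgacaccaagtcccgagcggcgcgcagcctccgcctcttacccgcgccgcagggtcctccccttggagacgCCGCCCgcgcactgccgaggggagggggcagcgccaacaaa
Col4a2 chr8:11312555-11312854 (plus strand): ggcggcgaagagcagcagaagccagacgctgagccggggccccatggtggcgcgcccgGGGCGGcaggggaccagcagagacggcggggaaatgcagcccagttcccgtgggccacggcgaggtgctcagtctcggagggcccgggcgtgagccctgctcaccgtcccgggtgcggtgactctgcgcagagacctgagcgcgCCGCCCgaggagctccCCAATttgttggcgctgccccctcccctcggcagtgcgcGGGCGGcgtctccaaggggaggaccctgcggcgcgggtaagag
The annotated starts lie 21 bases apart and the windows share 78 bases, among them 1 GC box that both windows hold, at chr8:11312812-11312817. On each gene's own strand it lies after the annotated start, beginning at position 9 for Col4a1 and 7 for Col4a2. The CCAAT letters of the windows lie on different bases, and neither window holds the TATA letters. Windows were found for 35 of the 44 members. Of these, 12 (34.3%) held the CCAAT letters, against 37.4% of 32851 windows of the same length over all genes, 22 (62.9%) held the GC box, against 35.7%, and 5 (14.3%) held the TATA letters, against 13.6%. Letters of 5 or 6 bases recur widely, and a match here is a description of the sequence.

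Col4a5 (ENSMUSG00000031274), on chromosome X, encodes the alpha5 chain of type IV collagen, found with alpha3 and alpha4 or with alpha6 in particular basement membranes. It stood at 7.22, 6.78 and 6.60 FPKM in GSH 1 to 3 and at 9.05, 7.71 and 8.52 FPKM in WT 1 to 3, so that all 3 GSH libraries lay below all 3 WT libraries. It fell by 0.26 on the log2 scale (SE 0.06), with a limma adjusted p of 0.0175. The call ended with no filter (limma adjusted p = 0.0532) and without GSH 2 (0.0505), GSH 3 (0.0582) or WT 3 (0.0509), where the log2 change stood between -0.26 and -0.23. Col4a6, its neighbour on chromosome X, lay below the filter, at 0.283 to 0.318 FPKM in GSH and 0.263 to 0.445 FPKM in WT. Col18a1 encodes a collagen with heparan sulfate chains whose end fragment is endostatin. It stood at 47.4, 47.4 and 47.1 FPKM in GSH 1 to 3 and at 47.9, 49.7 and 46.8 FPKM in WT 1 to 3, with overlap and a log2 change of -0.02 (SE 0.03; limma adjusted p = 0.547).

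Of the other collagens, Col7a1, Col16a1 and Col12a1 passed, and Col8a1 and Col6a1 did not. Col7a1 (ENSMUSG00000025650), on chromosome 9, encodes type VII collagen, which forms the anchoring fibrils that hold epithelial basement membranes to the matrix beneath. It stood at 88.9, 92.8 and 90.4 FPKM in GSH 1 to 3 and at 111, 118 and 107 FPKM in WT 1 to 3. The 3 GSH values lay close together and below every WT value. Col7a1 fell by 0.30 on the log2 scale (SE 0.04; limma adjusted p = 0.00370). Its means were 90.7 ± 1.92 FPKM in GSH and 112 ± 5.55 FPKM in WT (SD, n = 3 each), from 17231 to 27602 reads in GSH and 23512 to 25053 in WT. Its promoter window is shown because it was the collagen with the smallest p.
Col7a1 chr9:108953336-108953635 (plus strand): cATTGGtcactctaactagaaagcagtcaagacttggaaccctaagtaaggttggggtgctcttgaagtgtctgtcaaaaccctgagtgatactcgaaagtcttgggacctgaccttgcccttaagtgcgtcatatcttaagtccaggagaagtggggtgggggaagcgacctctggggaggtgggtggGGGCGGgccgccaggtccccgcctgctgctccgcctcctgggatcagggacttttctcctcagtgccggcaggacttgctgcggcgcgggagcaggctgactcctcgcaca
The window held the CCAAT letters at position -249 and the GC box letters at -61 from the annotated start, and no TATA letters. Col16a1 (ENSMUSG00000040690), on chromosome 4, encodes a collagen associated with fibrils and basement membrane zones. It stood at 17.2, 17.4 and 16.8 FPKM in GSH 1 to 3 and at 19.6, 20.7 and 19.2 FPKM in WT 1 to 3, again without overlap. Col16a1 fell by 0.20 (SE 0.04; limma adjusted p = 0.00722). The calls of Col7a1 and Col16a1 held without any 1 library, with limma adjusted p values of 0.00690 to 0.0175 for Col7a1 and 0.0131 to 0.0301 for Col16a1.

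Col12a1 (ENSMUSG00000032332), on chromosome 9, encodes type XII collagen, which binds to the surface of type I fibrils. It was a weakly detected transcript in these libraries, at 1.38, 1.58 and 1.87 FPKM in GSH 1 to 3 and 1.01, 1.13 and 1.14 FPKM in WT 1 to 3. All GSH values lay above all WT values. Col12a1 rose by 0.31 on the log2 scale (SE 0.08; limma adjusted p = 0.0290), a scale that understates the change of a gene this low. The call ended with no filter (limma adjusted p = 0.0964), without GSH 2 (0.0680), GSH 3 (0.0737), WT 1 (0.0868), WT 2 (0.0630) or WT 3 (0.0601), and with a term for WT 3, GSH 2 and GSH 3 (0.0579). Col8a1, a chain of the short-chain network type VIII, stood at 35.8, 31.9 and 34.2 FPKM in GSH 1 to 3 and at 38.8, 36.1 and 35.8 FPKM in WT 1 to 3, with a log2 change of -0.12 (SE 0.05; limma adjusted p = 0.118). Col6a1, a chain of the beaded filament collagen type VI, stood at 2.77 to 3.18 FPKM in GSH and 2.91 to 3.03 FPKM in WT. Its partner chains were nearly missing, as Col6a2 reached 0.191 to 0.286 FPKM in GSH and 0.136 to 0.157 FPKM in WT, and Col6a3 at most 0.0664 FPKM in GSH and 0.0618 FPKM in WT.

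The fibrillar collagens of the GSH and WT libraries were low and uneven between libraries of the same group. Col1a1 encodes the major chain of type I collagen. It stood at 9.36, 19.5 and 8.84 FPKM in GSH 1 to 3 and at 0.590, 3.39 and 10.4 FPKM in WT 1 to 3. The highest WT library therefore lay above 2 of the 3 GSH libraries, and the lowest, WT 1, rested on 85 reads. The log2 change was 1.57 (SE 0.69) with a limma adjusted p of 0.120. It was called without WT 3 (log2 change 2.27, limma adjusted p = 0.0267) and by limma-voom on recovered reads (2.09, adjusted p = 0.0279), and stood at 0.86 without WT 1 (limma adjusted p = 0.251). Its partner chain Col1a2 stood at 1.38, 4.53 and 1.75 FPKM in GSH 1 to 3 and at 0.150, 1.72 and 1.85 FPKM in WT 1 to 3. Col3a1, which encodes type III collagen, stood at 1.27, 2.29 and 0.599 FPKM in GSH 1 to 3 and at 0.139, 0.848 and 1.22 FPKM in WT 1 to 3. GSH 2 was the highest and WT 1 the lowest library for all 3 genes. The log2 changes of Col1a2 and Col3a1 were 0.67 (SE 0.45) and 0.45 (SE 0.33), with limma adjusted p values of 0.277 and 0.323. Neither passed under any alternative run, but their size depended on single libraries. The log2 change of Col1a2 was 0.25 without WT 1, 0.30 without GSH 2 and 1.46 by limma-voom on recovered reads. That of Col3a1 was 0.18 without WT 1, 0.71 without GSH 3 and 1.24 by limma-voom.

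Between the highest and the lowest of the 6 libraries, Col1a1 differed 33-fold, Col1a2 30.2-fold and Col3a1 16.5-fold, where the median over all tested genes was 1.23-fold. Transcripts of secretory glands, counted over 6 genes such as the odorant-binding gene Obp1a, were high in part of the same libraries. Their summed level was 1.29, 435 and 161 FPKM in GSH 1 to 3 and 1.69, 5.24 and 303 FPKM in WT 1 to 3. Summed over 5 skeletal muscle markers, the level was 20.9, 20.2 and 27.0 FPKM in GSH 1 to 3 and 16.9, 73.3 and 24.9 FPKM in WT 1 to 3. The 10 fibroblast markers, of which 9 are in the table, summed to 8.55 to 13.8 FPKM in GSH and 6.50 to 8.63 FPKM in WT, nearly all of it Pdgfra and Thy1, and Dpt was at 0 in WT 3. Lum, a proteoglycan of collagen fibrils, reached 0.0542 to 0.303 FPKM in GSH and 0.130 to 0.342 FPKM in WT. The fibroblast markers differed in order. Lum, Dcn and Fap were highest in WT 2, and Pdgfra and Thy1 in GSH 3. Pdgfrb, Dpt, Pi16 and Mfap5 were highest in GSH 2, at 0.261, 0.123, 0.0499 and 0.118 FPKM. Pdgfrb and Dcn were lowest in WT 1, at 0.0582 and 0.0234 FPKM. The 4 cartilage and bone markers summed to 0.767, 5.29 and 2.29 FPKM in GSH 1 to 3 and 0.961, 3.23 and 2.22 FPKM in WT 1 to 3, highest in GSH 2, and Acan and Ibsp were at 0 in WT 1. The part of these transcripts in the spread of the fibrillar collagens was not tested. Within the libraries high in gland transcripts (GSH 2 and GSH 3 against WT 3) the log2 change of Col1a1 was 0.32, and within the rest (GSH 1 against WT 1 and WT 2) it was 1.97. For Col7a1 these values were -0.22 and -0.36, for Col16a1 -0.16 and -0.22, for Col4a5 -0.31 and -0.19, and for Col12a1 0.35 and 0.20. Each of these fits has 1 library in 1 group, and limma's adjusted p was at least 0.0822 for all 5 genes.

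Col5a1 encodes a chain of type V collagen, which sits inside type I fibrils. Unlike the type I and III genes it was steady, at 6.30, 6.38 and 6.47 FPKM in GSH 1 to 3 and 6.74, 7.24 and 6.85 FPKM in WT 1 to 3, with no overlap. Its log2 change of -0.10 (SE 0.04) did not pass (limma adjusted p = 0.0610). It passed with median-of-ratios scaling (-0.12, limma adjusted p = 0.0335), with rescaling without mitochondrial genes (-0.14, 0.0260) and by limma-voom on recovered reads (-0.12, 0.0347). Its usual partner Col5a2 reached 0.325 to 0.646 FPKM in GSH and 0.0427 to 0.287 FPKM in WT, below the filter.

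Genes that modify, fold, export, bind and degrade collagen were counted in 9 lists of 90 genes, of which 54 were tested for GSH against WT. In limma, 7 rose, 15 fell and 32 did not pass, where 20.6% of all tested genes rose and 16.4% fell, and the median log2 change was -0.07 against 0.02 over all genes. The count of 22 passing genes was 14 without GSH 3, WT 1 or WT 2. The split of rises and falls moved as well. It was 7 and 8 with no filter and 10 and 11 without GSH 1. Without GSH 3 or WT 1 it was 6 and 8, and without WT 2 it was 7 and 7. Falls stayed ahead without GSH 2 (6 and 12) and without WT 3 (7 and 11). They also did so with median-of-ratios scaling (7 and 15) and with rescaling without mitochondrial genes (6 and 18). Both scalings moved the split over all genes toward falls as well. It was 2533 higher and 2014 lower in the main run, 2184 and 2251 with median-of-ratios scaling, and 1885 and 2517 without mitochondrial genes. The enzymes that act on collagen in the endoplasmic reticulum gave 6 of the falls and no rise. Of 9 tested genes of proline hydroxylation, 4 fell and 0 rose. P4ha1, a catalytic subunit of prolyl 4-hydroxylase, averaged 56.1 ± 0.631 FPKM in GSH and 63.7 ± 1.05 FPKM in WT (SD, n = 3 each; log2 change -0.18, SE 0.03, limma adjusted p = 0.00382). P4hb, the shared subunit that is also protein disulfide isomerase, averaged 519 ± 1.68 FPKM in GSH and 580 ± 8.69 FPKM in WT (log2 change -0.16; limma adjusted p = 0.00706, and 0.0667 with no filter). P3h3, a prolyl 3-hydroxylase family gene, fell by 0.23 (SE 0.05; limma adjusted p = 0.0120). Of 4 tested genes of lysine modification, Plod2 and Plod3, both lysyl hydroxylases, fell by 0.18 and 0.13 (limma adjusted p = 0.0126 and 0.0129). Colgalt1, which adds galactose to hydroxylysine, had a log2 change of 0.07 and did not pass (limma adjusted p = 0.132).

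**Figure D3:**
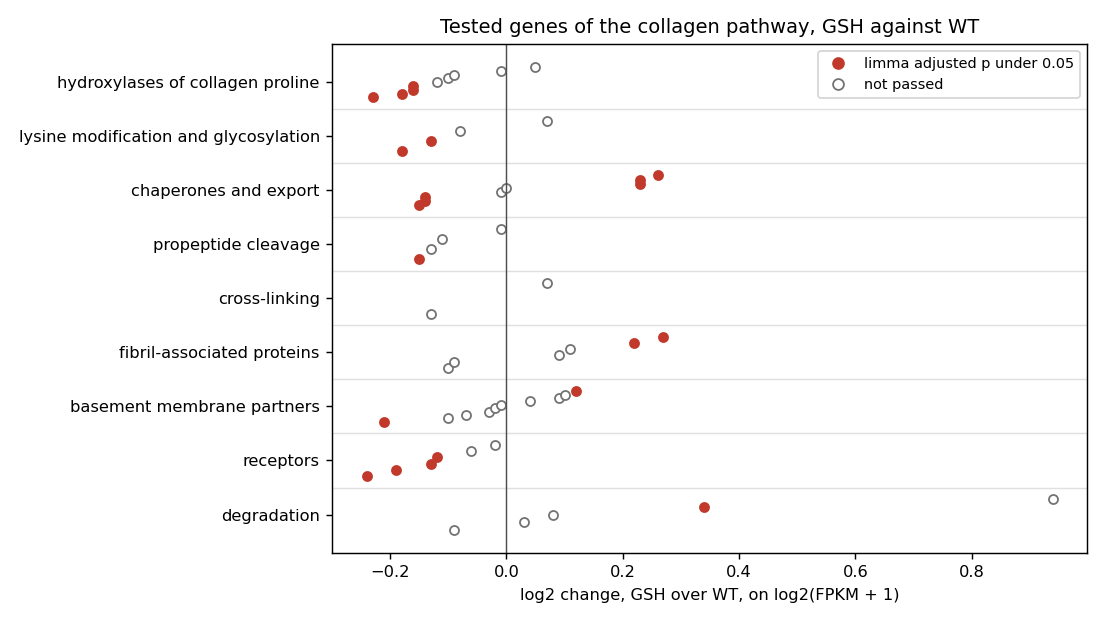
Log2 change of GSH over WT on the log2(FPKM + 1) scale for 54 tested genes of the collagen pathway, 1 point per gene in 9 lists, filled red where limma's adjusted p was under 0.05. The called hydroxylase, lysine modification and receptor genes lie below 0, export genes lie on both sides, and Mmp2 (0.94) is the open point farthest right.

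Genes of chaperoning and export moved in both directions, with 3 of 8 higher and 3 lower in GSH. Over all tested genes 20.6% were higher and 16.4% lower. The coat protein genes Sec23a, Sec13 and Sec24d, which build the COPII carriers that leave the endoplasmic reticulum, rose by 0.23, 0.26 and 0.23 (SE 0.03, 0.05 and 0.05; limma adjusted p = 0.00372, 0.00929 and 0.0117). The 3 that fell, named after their values were seen, were Mia3 (TANGO1) and Mia2, which help load large cargo into these carriers, and Serpinh1 (HSP47), the collagen chaperone. Mia3 and Mia2 each fell by 0.14 (limma adjusted p = 0.0221 and 0.0297). Serpinh1 averaged 209 ± 10.6 FPKM in GSH and 231 ± 1.83 FPKM in WT (SD, n = 3 each; log2 change -0.15, limma adjusted p = 0.0325). Each of these 3 calls ended without single libraries. The call of Mia3 ended without GSH 2, GSH 3, WT 1 or WT 2 (limma adjusted p = 0.0631, 0.0626, 0.0561 and 0.0524). The call of Mia2 ended with no filter (0.0712), with a term for WT 3, GSH 2 and GSH 3 (0.0636), and without GSH 1, GSH 2, GSH 3, WT 1 or WT 2 (limma adjusted p of 0.0584 to 0.0857). That of Serpinh1 ended with no filter (0.0992) and without any 1 library except GSH 2 (limma adjusted p of 0.0566 to 0.0872). Among 4 tested genes of propeptide cleavage, Bmp1, which removes the C-terminal propeptide, fell by 0.15 (SE 0.03; limma adjusted p = 0.0147). Adamts14, an N-propeptide protease, and Pcolce, an enhancer of Bmp1, had log2 changes of -0.11 and -0.13 and did not pass (limma adjusted p = 0.0843 and 0.141). Adamts14 passed with rescaling without mitochondrial genes (limma adjusted p = 0.0379), and Pcolce passed without GSH 2 (0.0379). Neither of 2 tested cross-linking oxidases passed, and Loxl4 and Loxl3 had log2 changes of 0.07 and -0.13 (limma adjusted p = 0.188 and 0.294).

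Outside the cell, 4 of 6 tested collagen receptors fell and 0 rose, where 16.4% of all tested genes fell and 20.6% rose. Itgb1, the beta1 integrin chain shared by the collagen-binding integrins, averaged 539 ± 13.4 FPKM in GSH and 616 ± 13.8 FPKM in WT (SD, n = 3 each; log2 change -0.19, SE 0.03, limma adjusted p = 0.00757, and 0.0589 with no filter). Itga2, its partner in a main epithelial collagen receptor, averaged 34.2 ± 0.660 FPKM in GSH and 37.6 ± 1.03 FPKM in WT (log2 change -0.13, limma adjusted p = 0.0180). The call of Itga2 ended without GSH 2 (limma adjusted p = 0.0519), WT 1 (0.0631) or WT 2 (0.0546). Itga10 was low, at 1.21 ± 0.149 FPKM in GSH and 1.61 ± 0.0915 FPKM in WT (limma adjusted p = 0.0381). Its call ended with no filter (0.123), with a term for WT 3, GSH 2 and GSH 3 (0.0802), and without GSH 2 (0.0894), GSH 3 (0.102), WT 1 (0.0712), WT 2 (0.107) or WT 3 (0.0855).

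Of 6 tested proteins found with fibrils, 2 rose and 0 fell, where 20.6% of all tested genes rose and 16.4% fell. Ccn2, a matricellular protein gene, averaged 235 ± 9.78 FPKM in GSH and 194 ± 3.83 FPKM in WT (SD, n = 3 each; log2 change 0.27, SE 0.04, limma adjusted p = 0.00368). Thbs1, which encodes thrombospondin 1, averaged 139 ± 7.17 FPKM in GSH and 119 ± 1.65 FPKM in WT (log2 change 0.22, limma adjusted p = 0.00942). Fn1, which encodes fibronectin, had a log2 change of 0.11 and did not pass (limma adjusted p = 0.0924), but passed without GSH 1 (0.0491) and by limma-voom on recovered reads (0.0357).

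Of 10 tested partners of type IV collagen in basement membranes, 1 rose and 1 fell. Over all tested genes 20.6% rose and 16.4% fell. Lamc1, the laminin gamma1 chain, rose by 0.12 (limma adjusted p = 0.0247) and Lamb2, the beta2 chain, fell by 0.21 (0.0460). The Lamc1 call ended with no filter (limma adjusted p = 0.0544), with rescaling without mitochondrial genes (0.0722), with a term for WT 3, GSH 2 and GSH 3 (0.0550), and without GSH 2 (0.0698), GSH 3 (0.0817), WT 1 (0.0810) or WT 3 (0.0696). The Lamb2 call ended with no filter (limma adjusted p = 0.124), with a filter at 0.5 FPKM (0.0530), without a variance trend (0.0572), with the same term (0.0502), and without GSH 1 (0.110), GSH 3 (0.103), WT 2 (0.119) or WT 3 (0.0981). Agrn, which encodes agrin, had a log2 change of -0.10 (limma adjusted p = 0.119), and passed with rescaling without mitochondrial genes (-0.14, 0.0479). Of 5 tested genes of degradation, 1 rose and 0 fell, beside the same shares of all genes. Pepd, the prolidase that frees proline from collagen peptides, rose by 0.34 (SE 0.05; limma adjusted p = 0.00570). The membrane collagenase gene Mmp14 had a log2 change of 0.08 (limma adjusted p = 0.0538). The gelatinase gene Mmp2 had a log2 change of 0.94 (SE 0.33; limma adjusted p = 0.0630), with means of 2.77 ± 0.595 FPKM in GSH and 1.10 ± 1.02 FPKM in WT (SD, n = 3 each). It passed without WT 3 (1.31, limma adjusted p = 0.00906) and by limma-voom on recovered reads (1.71, 0.0114), and its log2 change was 0.64 without WT 1.

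In the Cas9 and Ctrl libraries Col1a1, Col3a1 and Col1a2 led the list, and Ctrl 3 lay within the range of the 3 Cas9 libraries for each of them. Of the 44 members, 22 reached the filter and 22 lay below it. The 22 held all 13 tested for GSH against WT, together with Col5a2, Col5a3, Col6a2, Col6a3, Col14a1, Col15a1, Col20a1, Col23a1 and Col27a1. Those below had means of 0.00243 to 0.826 FPKM. The highest mean among them was that of Col17a1, a membrane collagen of hemidesmosomes, which stood at 0.278, 0.240 and 2.35 FPKM in Cas9 1 to 3 and at 0.438 FPKM in Ctrl 3. Col1a1, Col3a1, Col1a2, Col4a1, Col6a1 and Col4a2 made up 70.0 to 76.9% of the summed collagen level in Cas9 and 71.8% in Ctrl 3. Collagens summed to 1160, 2290 and 1040 FPKM in Cas9 1 to 3 and to 1720 FPKM in Ctrl 3, which was 0.269, 0.544 and 0.234% of all FPKM in Cas9 1 to 3 and 0.419% in Ctrl 3.

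The comparison of Cas9 with Ctrl had 1 Ctrl library, so the spread in the limma fit came from the Cas9 libraries alone and the lone library was assumed to vary like them. Of 11407 tested genes, 0 passed limma's adjusted p of 0.05 (0%) and 210 had an unadjusted p under 0.05 (1.84%), and limma-voom on recovered reads gave 0 and 188. Of the 22 tested collagens, 0 passed and 0 had an unadjusted p under 0.05, or 1 by limma-voom. Leaving out a Cas9 library, the number of the 22 with an unadjusted p under 0.05 was 0 without Cas9 1, 7 without Cas9 2 and 0 without Cas9 3, against 225 of 11392, 189 of 11398 and 346 of 11356 genes in all, and 0 passed limma's adjusted p in each. Cas9 2 held the most fibrillar collagen of the 3. Ctrl 3 lay outside the range of the 3 Cas9 libraries for 8 of the 22 collagens, against 42.6% of all tested genes. The log2 change was below 0 for 18 collagens and above 0 for 4, where 52.8% of all tested genes were below 0. The median was -0.42 over the collagens against -0.01 over all genes. Each of these signs rests on the same Ctrl library.

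**Figure D4:**
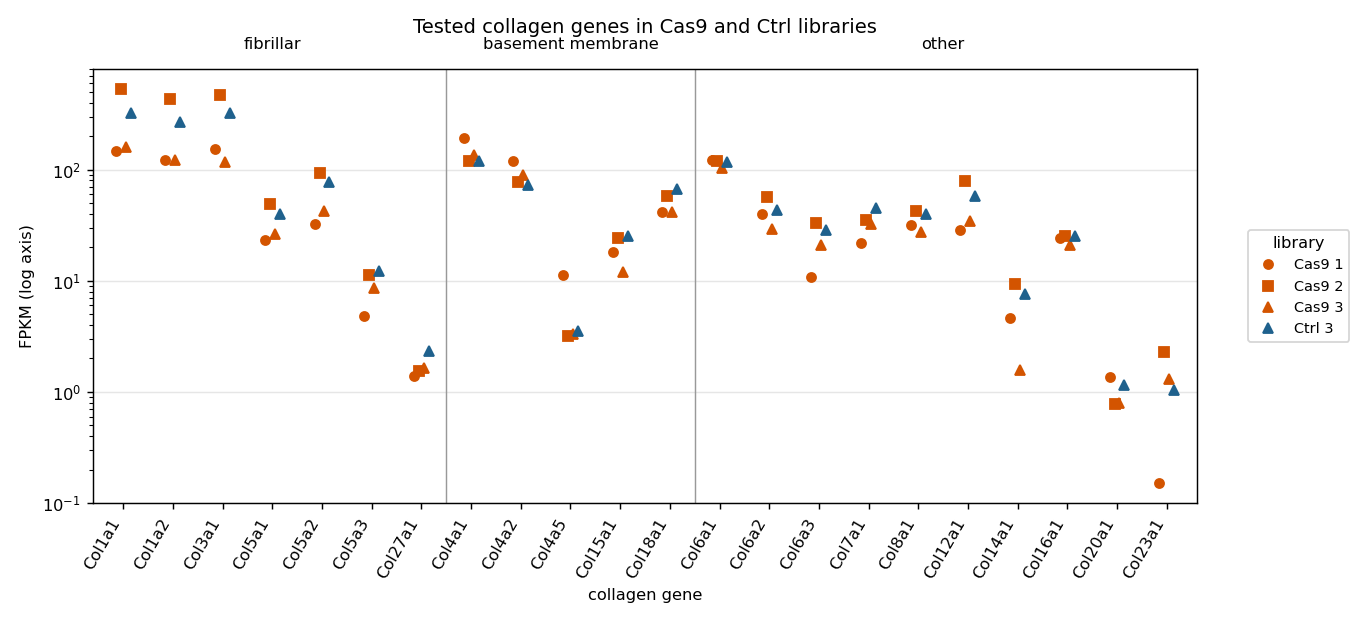
FPKM (log axis) of the 22 tested collagen genes in each of the 3 Cas9 libraries (orange) and in the Ctrl 3 library (blue triangles), grouped by class, with the symbol shape giving the replicate. For Col1a1, Col1a2 and Col3a1 the Cas9 2 squares lie above Ctrl 3 while Cas9 1 and Cas9 3 lie below it.

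Type I and type III collagen varied together from library to library. Col1a1 stood at 147, 533 and 159 FPKM in Cas9 1 to 3 and at 326 FPKM in Ctrl 3. Col1a2 stood at 123, 435 and 123 FPKM in Cas9 1 to 3 and at 270 FPKM in Ctrl 3. Col3a1 stood at 153, 475 and 117 FPKM in Cas9 1 to 3 and at 326 FPKM in Ctrl 3. For each of the 3 genes Cas9 2 was above Ctrl 3, and Cas9 1 and Cas9 3 were below it. The log2 changes were -0.49 (SE 0.79), -0.52 (SE 0.79) and -0.67 (SE 0.81) for Col1a1, Col1a2 and Col3a1, with limma adjusted p values of 1. The ratio of Col1a1 to Col1a2 was nearly constant, at 1.20, 1.22 and 1.29 in Cas9 1 to 3 and 1.21 in Ctrl 3, although the highest Cas9 library was 3.62-fold above the lowest for Col1a1 and 3.53-fold for Col1a2. Col1a2, on chromosome 6, and Col3a1, on chromosome 1, lie on different chromosomes, and both were highest in Cas9 2 with Ctrl 3 next. Their promoter windows are shown for this reason.
Col1a2 chr6:4505368-4505667 (plus strand): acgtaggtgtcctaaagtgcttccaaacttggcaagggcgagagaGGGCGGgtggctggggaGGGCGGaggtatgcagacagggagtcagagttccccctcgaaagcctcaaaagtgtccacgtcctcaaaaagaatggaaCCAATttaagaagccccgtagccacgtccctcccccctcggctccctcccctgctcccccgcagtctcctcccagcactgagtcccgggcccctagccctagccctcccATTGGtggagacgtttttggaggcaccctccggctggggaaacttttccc
Col3a1 chr1:45311288-45311587 (plus strand): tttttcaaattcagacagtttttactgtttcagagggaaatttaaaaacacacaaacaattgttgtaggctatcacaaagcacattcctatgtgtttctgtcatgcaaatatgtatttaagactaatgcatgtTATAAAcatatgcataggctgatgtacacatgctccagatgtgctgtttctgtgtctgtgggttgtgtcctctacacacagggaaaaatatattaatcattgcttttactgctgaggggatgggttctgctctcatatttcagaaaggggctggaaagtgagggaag
The Col1a2 window held 2 CCAAT boxes and 2 GC boxes and no TATA letters, and the Col3a1 window held 1 TATA box and neither of the other motifs.

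The type V chains Col5a1 and Col5a2 had the order of libraries seen in Col1a1. Col5a1 stood at 23.3, 49.1 and 26.5 FPKM in Cas9 1 to 3 and at 39.9 FPKM in Ctrl 3, and its partner Col5a2 at 32.7, 93.1 and 42.3 FPKM in Cas9 1 to 3 and at 77.3 FPKM in Ctrl 3. Col5a3 was highest in Ctrl 3, at 4.85, 11.3 and 8.68 FPKM in Cas9 1 to 3 and 12.3 FPKM in Ctrl 3. Col27a1, a fibrillar chain known from cartilage, was nearly even within Cas9, at 1.40, 1.54 and 1.64 FPKM in Cas9 1 to 3 and 2.31 FPKM in Ctrl 3. The ratio of Cas9 to Ctrl 3 over the 7 tested fibrillar genes had a median of 0.456 for Cas9 1, 1.23 for Cas9 2 and 0.547 for Cas9 3. Summed, fibrillar collagens took 487, 1600 and 479 FPKM in Cas9 1 to 3 and 1060 FPKM in Ctrl 3.

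Among the other collagens, the fibril-binding types XII and XIV were also highest in Cas9 2, with Ctrl 3 next. The same held for Col6a2, Col6a3 and Col8a1. Col12a1 stood at 28.4, 79.0 and 34.8 FPKM in Cas9 1 to 3 and at 58.5 FPKM in Ctrl 3. Col14a1, a relative of type XII that also decorates fibrils, stood at 4.66, 9.33 and 1.58 FPKM in Cas9 1 to 3 and at 7.54 FPKM in Ctrl 3. The type VI chains did not move as 1 unit. Col6a1 was nearly level, at 123, 120 and 104 FPKM in Cas9 1 to 3 and 118 FPKM in Ctrl 3. Col6a2 stood at 39.8, 57.1 and 29.5 FPKM in Cas9 1 to 3 and at 43.5 FPKM in Ctrl 3, and Col6a3 at 10.9, 33.1 and 20.9 FPKM in Cas9 1 to 3 and at 28.9 FPKM in Ctrl 3. In Col6a1 the highest Cas9 library was 1.18-fold above the lowest, against 3.02-fold in Col6a3. Col7a1 stood at 22.1, 35.6 and 32.7 FPKM in Cas9 1 to 3 and at 45.2 FPKM in Ctrl 3, above all 3 Cas9 libraries (log2 change -0.60, SE 0.29, limma adjusted p = 1). Col16a1 stood at 24.1, 25.3 and 20.9 FPKM in Cas9 1 to 3 and at 25.5 FPKM in Ctrl 3. Col8a1 stood at 32.1, 42.8 and 27.4 FPKM in Cas9 1 to 3 and at 39.6 FPKM in Ctrl 3. Col23a1, a membrane collagen, had the widest spread of the 22, at 0.150, 2.28 and 1.30 FPKM in Cas9 1 to 3 and 1.05 FPKM in Ctrl 3, and Col20a1 stood at 0.771 to 1.35 FPKM in Cas9 and 1.15 FPKM in Ctrl 3.

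The basement membrane collagens had another order of libraries. Col4a1 stood at 191, 120 and 135 FPKM in Cas9 1 to 3 and at 119 FPKM in Ctrl 3. Col4a2 stood at 119, 76.9 and 89.6 FPKM in Cas9 1 to 3 and at 72.8 FPKM in Ctrl 3. Both chains were highest in Cas9 1 and lowest in Ctrl 3, and their log2 changes were 0.28 (SE 0.29) and 0.36 (SE 0.27) with limma adjusted p values of 1. Col4a5 stood at 11.3, 3.16 and 3.29 FPKM in Cas9 1 to 3 and at 3.54 FPKM in Ctrl 3, and its neighbour Col4a6, below the filter, at 1.19, 0.366 and 0.397 FPKM in Cas9 1 to 3 and at 0.392 FPKM in Ctrl 3. Cas9 1 thus stood apart for both genes of the pair, whose starts lie 1343 bases apart on chromosome X. Col18a1 went another way, at 41.6, 57.4 and 42.0 FPKM in Cas9 1 to 3 and 66.5 FPKM in Ctrl 3 (log2 change -0.51, SE 0.23, limma adjusted p = 1). Its relative Col15a1 stood at 18.0, 24.4 and 12.1 FPKM in Cas9 1 to 3 and at 25.3 FPKM in Ctrl 3. Summed, basement membrane collagens took 382, 282 and 282 FPKM in Cas9 1 to 3 and 288 FPKM in Ctrl 3.

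Over the 3 Cas9 libraries the highest value was 2.06-fold above the lowest in the median collagen, and over 2-fold for 12 of 22 (54.5%), where the median of all tested genes was 1.26-fold and 10.8% exceeded 2-fold. Cas9 2 was the highest of the 3 for 16 of the 22 collagens (72.7%) and for 22.3% of all tested genes. Members of a library share its cells and depth, so these counts describe the libraries and carry no test. Markers of other cell types differed between the same libraries. The 10 fibroblast markers summed to 136, 263 and 141 FPKM in Cas9 1 to 3 and to 231 FPKM in Ctrl 3, with 8, 9 and 9 of them at 1 FPKM or more in Cas9 1 to 3 and 9 in Ctrl 3. Tcf21 was at 0 in all 3 Cas9 libraries and at 0.0203 FPKM in Ctrl 3. Lum stood at 20.2, 64.3 and 28.0 FPKM in Cas9 1 to 3 and at 52.8 FPKM in Ctrl 3, and Acta2, the smooth muscle actin of myofibroblasts, at 26.5, 68.0 and 32.8 FPKM in Cas9 1 to 3 and at 57.5 FPKM in Ctrl 3. Both had the order of libraries seen in Col1a1, with Cas9 2 highest and Ctrl 3 next, but were named after their values were seen, and other members of their lists differed. Among fibroblast markers, Pdgfra was highest in Cas9 1, at 13.9, 11.6 and 8.21 FPKM in Cas9 1 to 3 and 9.42 FPKM in Ctrl 3, and Pdgfrb, Fap and Mfap5 were highest in Ctrl 3. In the list of Acta2, pericytes and smooth muscle, Rgs5, Des, Kcnj8 and Abcc9 were highest in Cas9 1. Rgs5 stood at 21.4, 10.8 and 10.7 FPKM in Cas9 1 to 3 and at 11.4 FPKM in Ctrl 3. Summed, that list took 69.8, 92.6 and 55.1 FPKM in Cas9 1 to 3 and 79.8 FPKM in Ctrl 3. The 8 endothelial markers summed to 173, 75.4 and 112 FPKM in Cas9 1 to 3 and to 83.0 FPKM in Ctrl 3, and none was at 0. Pecam1, an endothelial junction gene, stood at 52.2, 22.5 and 39.9 FPKM in Cas9 1 to 3 and at 28.0 FPKM in Ctrl 3, highest in Cas9 1 as were Col4a1 and Col4a2. The part of these cell types in the collagen values was not tested.

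**Figure D5:**
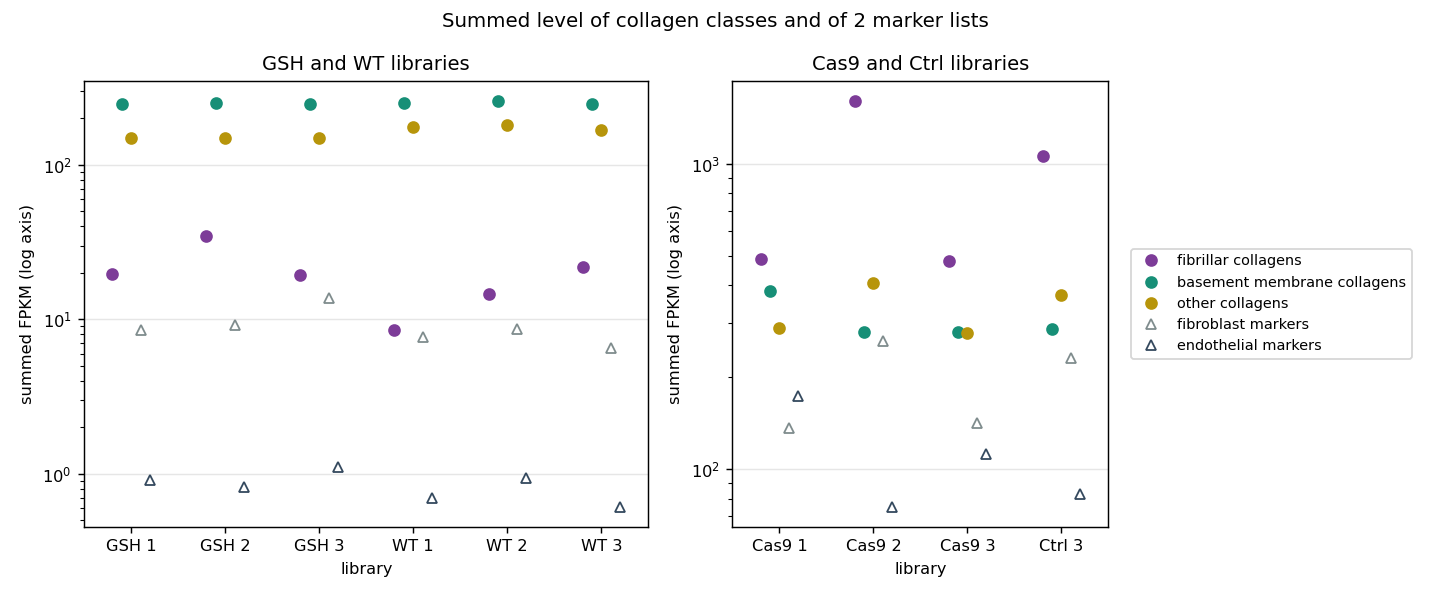
Summed FPKM (log axis) per library of the 3 collagen classes (filled circles) and of fibroblast and endothelial marker lists (open triangles), in the GSH and WT table (left) and the Cas9 and Ctrl table (right), which were normalised separately. Fibrillar collagens and fibroblast markers are both highest in Cas9 2 (1600 and 263 FPKM). Summed basement membrane collagens and endothelial markers are highest in Cas9 1 (382 and 173 FPKM), though Col18a1 and Col15a1 were highest in Ctrl 3. Markers of pericytes and smooth muscle, not drawn, summed highest in Cas9 2 (92.6 FPKM).

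Of the 90 collagen pathway genes, 80 were tested for Cas9 against Ctrl. In limma 0 passed, 2 had an unadjusted p under 0.05, 65 had a log2 change below 0 and 15 above 0, and the median was -0.17. Over all tested genes 1.84% had an unadjusted p under 0.05, 52.8% had a log2 change below 0, and the median was -0.01. Those 2 were Fmod, which encodes the fibril proteoglycan fibromodulin, and Antxr2, a receptor for type IV and type VI collagen. Fmod averaged 0.974 ± 0.575 FPKM in Cas9 (SD, n = 3) and stood at 3.64 FPKM in Ctrl 3, with a log2 change of -1.27 (SE 0.36; limma adjusted p = 1). Antxr2 averaged 42.2 ± 4.55 FPKM in Cas9 and stood at 58.7 FPKM in Ctrl 3, with a log2 change of -0.47 (SE 0.17; limma adjusted p = 1). The lists differed in how far they ran below 0. The median log2 change was -0.44 over 14 fibril-associated genes, -0.50 over 5 cross-linking oxidases and -0.37 over 5 genes of propeptide cleavage, and -0.04 over 10 genes of proline hydroxylation and -0.11 over 4 genes of lysine modification. Loxl3, the oxidase with the smallest p, averaged 33.2 ± 6.31 FPKM in Cas9 and stood at 46.1 FPKM in Ctrl 3, and Bmp1 averaged 192 ± 24.4 FPKM in Cas9 and stood at 247 FPKM in Ctrl 3. The hydroxylase gene with the smallest p, P3h2, averaged 2.43 ± 1.26 FPKM in Cas9 and stood at 1.21 FPKM in Ctrl 3 (log2 change 0.58, SE 0.42; limma adjusted p = 1). Leaving out single Cas9 libraries, the number of pathway genes with an unadjusted p under 0.05 was largest without Cas9 2, as for the collagens. Over all genes it was largest without Cas9 3. No gene passed limma's adjusted p in these runs, and each rests on the same Ctrl library.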

How the data were processed

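RNA sequencing values of 10 libraries (of 12 samples in the labels) were used. Per the submitters' processing notes, Bowtie2 2.2.3, HISAT2 2, HTSeq 0.6.0 and the build mm8 were named, with no role. The deposited values were read as FPKM made by the authors, since neither labels nor headers name the unit. Symbols for 30190 of 30803 Ensembl identifiers came from the reference tables. Reads were counted back from the smallest steps between FPKM values (within 0.05 read for GSH and WT, for 97.09 to 97.18% of values, and within 0.001 for Cas9 and Ctrl, where a sum is a lower bound) and served for depth and an alternative test. Tests used limma 3.58.1 (R 4.3.3) on log2(FPKM + 1), with a variance trend, group as the only term, two-sided, over genes with a mean of 1 FPKM or more, with Benjamini-Hochberg adjustment at 0.05 over all of them. Promoter windows are RefSeq's, on GRCm38.p6. Values in every library are given for members past the threshold and for the 6 of highest mean in each table, and of each pathway list the 3 members with the smallest p are named for GSH against WT, though not each such gene is printed for Cas9 against Ctrl. The members and lists were chosen with earlier results of these data known.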

Additional observations from a re-analysis of the deposited data

How the results depend on the processing

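For GSH against WT, 4 collagens, 22 pathway genes and 4547 genes in all were called. The collagen count was 2 with no filter and 2 to 4 without any 1 library (2 without GSH 2 or GSH 3), where the pathway count was 14 to 21 (14 without GSH 3, WT 1 or WT 2) and that over all genes 2998 (without WT 1) to 3671. Within GSH 2, GSH 3 and WT 3 alone, 0 collagens, 0 pathway genes and 0 genes in all were called (3401 of all genes at an unadjusted p under 0.05), and within GSH 1, WT 1 and WT 2 alone, 0, 0 and 4 (3797). These fits have 1 library in 1 group, so fewer samples stand behind them. Same-numbered GSH and WT libraries deviated together with correlations of 0.48, -0.11 and 0.21. GSH 1 correlated best with WT 1 and GSH 3 with WT 3, but GSH 2 also with WT 3 (0.39). Deviations from means of 3 libraries cannot settle whether the numbers pair them. With the replicate block 4 collagens, 20 pathway genes and 3867 genes in all were called. Under it the calls of Itga10 (limma adjusted p = 0.0787), Mia3 (0.0539) and Mia2 (0.0504) ended and Mmp2 passed (0.0255). No paired analysis was possible for Cas9 against Ctrl because only replicate 3 is shared. Signs turned for changes that were not called, and the cause was not tested. Col6a1 gave -0.0027 (median-of-ratios scaling), -0.017 (rescaling without mitochondrial genes), -0.0020 (limma-voom), -0.022 to 0.052 (without any 1 library; the sign turned without GSH 3), -0.0041 (a term for WT 3, GSH 2 and GSH 3) and -0.078 (within GSH 1, WT 1 and WT 2). Col4a2 gave -0.0048, -0.023 and -0.010 under the first, second and last of these, and Loxl4 -0.0064 under the last. Within GSH 2, GSH 3 and WT 3, Col18a1 and Col4a1 each gave 0.013. For Cas9 against Ctrl, Col23a1 gave -0.29 and -0.065 (pseudocounts of 0.1 and 0.5) and -0.49 (limma-voom). Without any 1 Cas9 library, the range was -0.079 to 0.42 for Col23a1, -0.077 to 0.042 for Col6a1, -0.34 to 0.13 for Col6a2 and -0.28 to 0.016 for Colgalt1, with the sign turned without Cas9 3, and -0.11 to 0.68 for Col4a5, turned without Cas9 1. No alternative run for Cas9 against Ctrl called any gene in limma. Rescaling without mitochondrial genes was not run there, as that table lists none, nor was a fit without Ctrl 3. Counting error bears on low values, such as Col1a1 in WT 1, which rested on 85 of 21954133 reads.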

Other observations

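The ratio of Col4a1 to Col4a2, looked at after the levels were seen and not tested, was 1.24, 1.25 and 1.25 over GSH 1 to 3, against 1.29, 1.27 and 1.28 over WT 1 to 3, without overlap although neither gene was called. In the other table it was 1.61, 1.56 and 1.50 in Cas9 1 to 3 and 1.64 in Ctrl 3. Across the tables the ratio also reflects the gene lengths each table used. The ratio of Col1a1 to Col1a2 was uneven in the GSH and WT libraries, at 6.77, 4.30 and 5.06 over GSH 1 to 3, against 3.93, 1.97 and 5.60 over WT 1 to 3. Col4a5 stood at 0.0681, 0.0629 and 0.0614 of the level of Col4a1 in GSH 1 to 3 and at 0.0832, 0.0691 and 0.0798 in WT 1 to 3.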
